A study of Mus musculus with 10 samples.

Results

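The scaffolds of the postsynaptic density were measured by 19 probes of 10 genes (Dlg1, Dlg2, Dlg3, Dlg4, Shank1, Shank2, Shank3, Homer1, Homer2 and Dlgap1), out of 41174 probes on the array and 18539 genes that could be named. The members were chosen by gene symbol, with earlier results of these data known. Each non-control probe was named through its RefSeq accession, since the files carry no symbol, and every probe so named was kept. Dlg3, Shank1, Shank2 and Shank3 had 1 probe each, Dlg1, Dlg2 and Dlg4 had 2, and Homer1, Homer2 and Dlgap1 had 3.

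RNA from the left hemibrain of 10 male C57BL/6J mice was labeled with Cy-5, 1 animal per array, and a second RNA was labeled with Cy-3. The mice entered at 3 weeks of age and were fed for about 20 weeks, to 5 months. No transgene or deletion is named for any of the animals. The sources differ on the diet and on the Cy-3 RNA. In the labels, every Cy-5 sample is from the n-3 PUFA enriched diet (FD) and Cy-3 is a hemibrain pool from the standard diet (SD), while the sample descriptions read controls. The methods name both diets among the arrays and a commercial reference RNA. No comparison of FD with SD was therefore made, and the spread over the arrays may hold a difference of diet. The comparison that every array carries is Cy-5 against Cy-3, with no dye swap, so that dye and RNA cannot be told apart, and the spread of the Cy-3 RNA itself was not measured.

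The postsynaptic density is a protein layer under the membrane of excitatory synapses that holds glutamate receptors and their signaling enzymes in place. The Dlg genes encode membrane-associated guanylate kinases, which bind receptor tails through PDZ domains. Dlgap1 encodes a linker that binds the guanylate kinase domain of the Dlg proteins on its membrane side and the Shank proteins on its inner side. The Shank proteins are large scaffolds that also bind Homer, and Homer proteins bind group I metabotropic glutamate receptors and, in their long forms, link to each other. The layer is a feature of neurons, although several of these genes, Dlg1 among them, are also used at cell junctions of epithelia and other tissues.

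The RNA and the arrays were checked first. A gene, taken by its brightest probe, was called at a limma adjusted p under 0.05 and a mean change of at least 2-fold. Of all 18539 genes, 23.1% were called higher and 22.5% lower. Of the neuron markers, 7 of 8 genes were higher in Cy-5, with a list median of log2 Cy-5/Cy-3 between 4.37 and 5.03 over the arrays. The exception was Syn1, at -0.27. Markers of other brain cells were higher too, in 5 of 6 astrocyte genes (list median over the arrays 5.15 to 5.70), 6 of 6 oligodendrocyte genes (4.31 to 5.06), 4 of 6 microglia genes (2.05 to 2.63), 3 of 4 endothelium genes (2.48 to 4.89) and 2 of 3 choroid plexus genes (3.92 to 5.94). All 6 proliferation genes were lower (-6.73 to -5.23). The labels give a hemibrain pool in Cy-3 and the methods a commercial reference RNA, and the identity of the Cy-3 RNA was not tested. In bulk RNA, fewer cells of a type and less RNA per cell cannot be told apart, and the part of these cell types in the ratios below was not tested. Array C10-434 was dim, where 49.8% of all probes were detected (carried the software's flag for a spot well above background) in Cy-5, and 68.2% to 76.9% elsewhere. On it, 14 of the 19 scaffold probes were detected in Cy-5 and 9 in Cy-3.

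RefSeq promoter windows, from 250 bases before to 50 bases after a transcript start (assembly GRCm38.p6), matched 8 of the 10 genes with 19 windows. Shank1 and Shank2 were not matched. Printed 5′ to 3′ on the plus strand are 1 of 4 windows of Dlg1, which had the ratios nearest to 0 among the genes with a window, both windows of Dlgap1, whose 3 probes were all far above 0, and 1 of 2 windows of Homer1, a gene with an activity-induced short form. Capitals mark TGACG, the core of the cAMP response element, and GGGCGG, the GC box, on either strand; neither string holds the other.
Dlg1, chr16:31663685-31663984: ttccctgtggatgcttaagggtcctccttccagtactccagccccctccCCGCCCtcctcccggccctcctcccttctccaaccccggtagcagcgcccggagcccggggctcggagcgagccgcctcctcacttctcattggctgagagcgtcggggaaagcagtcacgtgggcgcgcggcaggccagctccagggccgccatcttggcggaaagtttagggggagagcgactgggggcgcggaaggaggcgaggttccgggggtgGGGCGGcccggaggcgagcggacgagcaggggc
Dlgap1, chr17:69968823-69969122: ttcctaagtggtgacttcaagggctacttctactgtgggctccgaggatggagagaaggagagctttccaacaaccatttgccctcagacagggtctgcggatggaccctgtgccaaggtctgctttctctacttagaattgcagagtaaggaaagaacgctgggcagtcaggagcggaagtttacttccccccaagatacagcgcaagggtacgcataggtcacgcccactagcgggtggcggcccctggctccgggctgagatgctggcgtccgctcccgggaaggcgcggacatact
Dlgap1, chr17:70561497-70561796: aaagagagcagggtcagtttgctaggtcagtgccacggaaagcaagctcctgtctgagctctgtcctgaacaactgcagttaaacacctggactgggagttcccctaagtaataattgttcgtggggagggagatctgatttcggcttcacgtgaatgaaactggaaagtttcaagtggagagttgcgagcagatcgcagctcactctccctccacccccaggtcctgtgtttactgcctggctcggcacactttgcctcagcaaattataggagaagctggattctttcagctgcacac
Homer1, chr13:93303507-93303806: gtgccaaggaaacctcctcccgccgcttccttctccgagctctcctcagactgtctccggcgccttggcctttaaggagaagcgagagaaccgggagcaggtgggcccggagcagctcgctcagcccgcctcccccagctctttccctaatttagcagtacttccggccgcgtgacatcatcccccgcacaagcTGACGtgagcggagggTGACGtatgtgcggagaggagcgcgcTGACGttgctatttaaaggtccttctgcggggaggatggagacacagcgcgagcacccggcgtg

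The printed Homer1 window held 3 matches to TGACG and the other Homer1 window 0. The printed Dlg1 window held 0 matches to TGACG and 2 to GGGCGG, and of the other Dlg1 windows 1 held a single GGGCGG. Neither Dlgap1 window held either motif. TGACG occurred in 3 of the 19 windows, of 3 genes (Homer1, Dlg3 and Dlg4), against 20.8% of 32851 windows in the table. GGGCGG occurred in 6 windows of 5 genes (Dlg1, Dlg3, Dlg4, Shank3 and Homer2), against 35.7% of all windows. The E-box CACGTG, also searched on both strands, was found in 3 windows of 2 genes (7.15% of all) and TATAAA in 3 windows of 3 genes (13.6% of all). The median GC content was 52.3% for the scaffold windows and 52.7% for all. A Homer2 window and the Shank3 window had 82.3% and 81% GC, more than 99.6% and 99.3% of all windows. The other Homer2 window had 52.3%. These matches are descriptions of the letters in a window, and none was related to the ratios by a test.

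Most scaffolds were higher in Cy-5 than in Cy-3. A probe was called when limma's adjusted p (Benjamini-Hochberg over all probes) was under 0.05 and the mean log2 ratio was at least 1, a ratio of 2. By this rule 17 of the 19 probes were higher, 0 were lower and 2 were not called, where 20.5% of all probes were called higher and 23.1% lower. At an adjusted p under 0.05 of any size the counts stayed at 17 and 0. The shares of all probes under that looser rule are not given here, and those above do not apply to it. All probes were higher for 8 of the 10 genes, the exceptions being Dlg1, whose probes were split, and Shank2. No share of all genes is given for this count. By the brightest probe alone, 23.1% of 18539 genes were higher. The median of the 19 mean log2 ratios was 2.57, against 0.00 over all probes. The ratio was above 0 on all 10 arrays for 15 probes, as for 26.6% of all probes, and on all 9 arrays with a value for a Dlg1 probe, and every Cy-5 signal exceeded every Cy-3 signal for 12 probes, as for 13.4% of all. The size depended on how background was handled. With normexp correction 10 probes were called higher, and with background subtracted to a floor 13 were. The share of all probes called higher under these settings is not given here, so whether the drop is particular to the scaffolds cannot be told. Both settings add an offset of 50 to each dye, which draws the ratios of dim probes toward 0. They also start from median signals and end with loess, so these steps changed together with the background. Values under them are given below by these names. Without them, among the 9 scaffold probes detected in both dyes on all arrays, 8 were higher (23.8% of 18642 such probes).

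**Figure D1:**
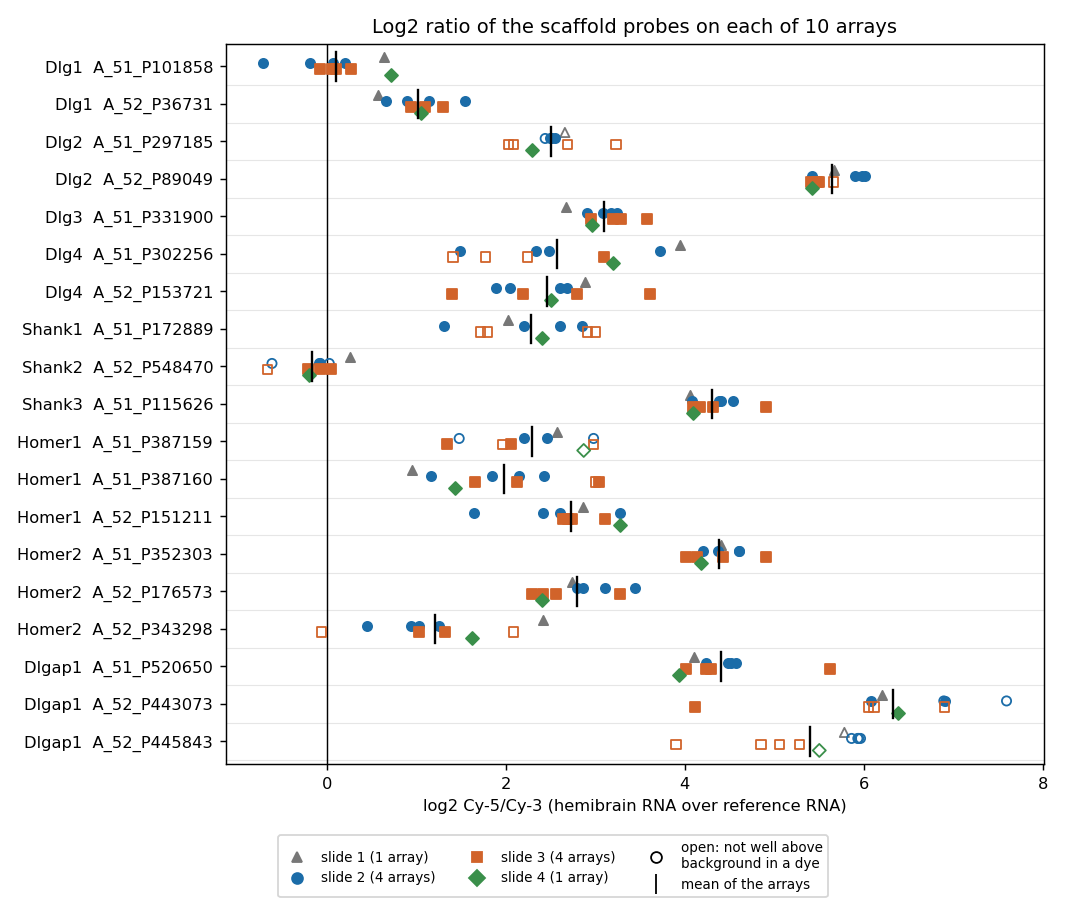
Log2 Cy-5/Cy-3 (x axis) of each scaffold probe (y axis, gene and probe) on each of the 10 arrays; marker shape and color give the slide, an open marker a spot not detected in at least 1 dye, and a vertical tick the mean. The points of 16 probes lie right of 0 on every array with a value (9 arrays for Dlg1 A_52_P36731), while those of Shank2, Dlg1 A_51_P101858 and Homer2 A_52_P343298 lie on both sides.

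Among the Dlg genes, Dlg2, Dlg3 and Dlg4 were higher in Cy-5 than in Cy-3 on all arrays. Dlg2, a neuronal scaffold of the membrane-associated guanylate kinase family, gave the largest ratio of the Dlg genes. Its probe A_52_P89049 had log2 ratios of 5.41 (C10-424), a median of 5.58 and 6.01 (C10-416), with a mean of 5.64 ± 0.084 (SE, n = 10), or 50-fold (limma adjusted p = 3.07e-14). The Cy-5 signal of this probe lay between 3150 and 14100 and the Cy-3 signal between 62.5 and 278, so the dyes did not overlap. Cy-3 was not detected on C10-434, and the mean was 3.86 with normexp and 4.65 with the floor, still called. The other Dlg2 probe, A_51_P297185, gave 2.03 to 3.23 with a mean of 2.50 ± 0.106. It was detected in Cy-3 on 3 of the 10 arrays, and on every array its ratio was below that of A_52_P89049, by a median of 3.22. Its mean was 0.51 with normexp and 0.76 with the floor, each no longer called. The Dlg2 probes did not agree in size.

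Dlg3, an X-linked member that is abundant during synapse formation, had log2 ratios of 2.67 (C10-413), a median of 3.12 and 3.58 (C10-434). Its mean was 3.10 ± 0.086 (SE, n = 10), or 8.6-fold, with a limma adjusted p of 2.6e-12. Both dyes were detected on all arrays, at 26800 to 55100 in Cy-5 and 2230 to 5830 in Cy-3, with no overlap between them.

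Dlg4, the major scaffold of mature excitatory synapses, was higher by both probes, and its signal varied more between arrays than that of nearly all probes detected in both dyes on every array. The ratio of A_52_P153721 ran from 1.40 (C10-435) over a median of 2.56 to 3.61 (C10-434), with a mean of 2.46 ± 0.176 (SE, n = 10; limma adjusted p = 3.22e-08). A_51_P302256 ran from 1.41 (C10-435) over 2.41 to 3.94 (C10-413), with a mean of 2.57 ± 0.25 and an adjusted p of 7.48e-07 in the same limma fit. It was detected in Cy-3 on 7 of the 10 arrays. With normexp its mean was 0.81, no longer called, and that of A_52_P153721 was 1.48. From the processed signals the probes gave like means, although their difference on single arrays ran from -1.06 to 1.84.

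The spread of Dlg4 was one of level as well as of ratio. In Cy-5, A_52_P153721 had 5790 on C10-413, 2940 on C10-424, 2450 on C10-416 and 2040 on C10-437, but 393 on C10-435. The same 4 arrays were highest for A_51_P302256, with 1640, 589, 692 and 568, whereas the other arrays lay between 137 and 343. For A_52_P153721 the next signals were 1900 on C10-434, the lowest array for A_51_P302256, and 1320 on C10-415. Leaving out the dim array C10-434, the highest Cy-5 signal of A_52_P153721 was 14.7 times the lowest, more than for 99.8% of the 18642 probes detected in both dyes on all arrays, whose median was 1.91. In Cy-3, which by the sources is the same RNA throughout, the highest of these 9 signals was 5.27 times the lowest, more than for 99.7% of those probes, whose median was 1.40. C10-413 was highest in both dyes and C10-435 lowest in both, with Cy-3 signals of 785 and 149. The part of the arrays themselves in the Cy-5 spread was not tested.

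**Figure D2:**
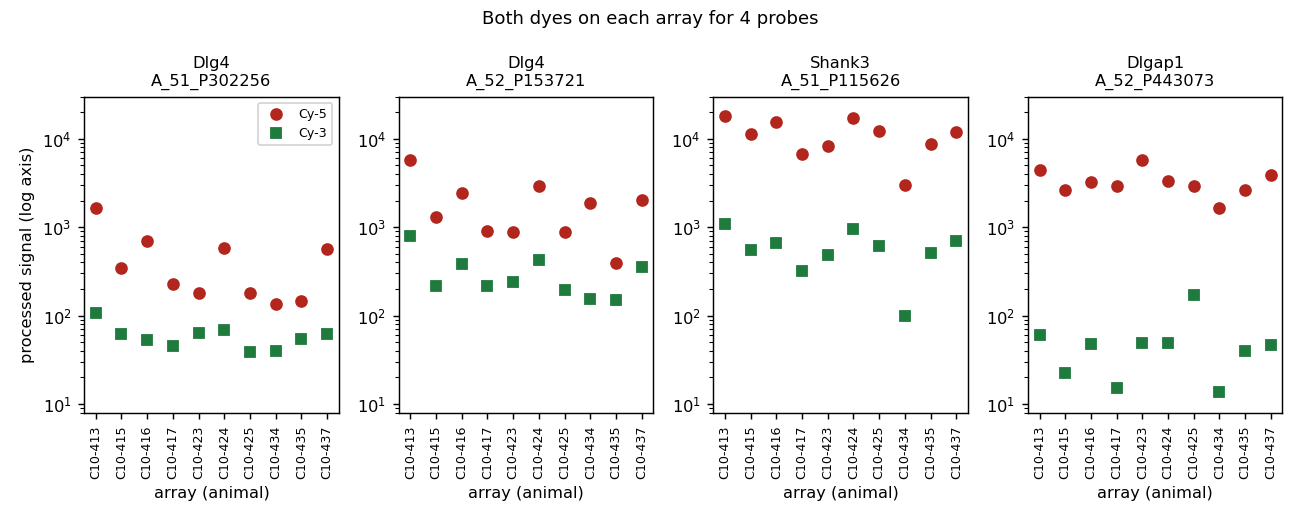
Processed signal in Cy-5 (circles) and Cy-3 (squares) on a log axis for both Dlg4 probes, Shank3 and a Dlgap1 probe, on the array of each animal (x axis). For Dlg4 both dyes are highest on C10-413; for Shank3 both are lowest on C10-434; for the Dlgap1 probe the Cy-3 signal is highest on C10-425, at 171.

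Dlg1, the broadly expressed member of the family, was the nearest to parity of the Dlg genes. Probe A_51_P101858 had log2 ratios between -0.71 (C10-415) and 0.72 (C10-437), with a median of 0.09, and was above 0 on 7 of 10 arrays. The mean was 0.11 ± 0.123 (SE, n = 10; limma adjusted p = 0.412), with a 95% interval from -0.15 to 0.38, although both dyes were detected throughout (524 to 2030 in Cy-5 and 501 to 1300 in Cy-3). With normexp its mean was 0.26 (limma adjusted p = 0.0114) and with the floor 0.32 (limma adjusted p = 0.0062), both under the fold limit. The second probe, A_52_P36731, had 0.57 (C10-413), a median of 1.05 and 1.54 (C10-423), with a mean of 1.02 ± 0.103 (SE, n = 9; limma adjusted p = 1.94e-06). Its spot on C10-424 carried an outlier flag and was set aside. The call lay at the fold limit: without C10-423 the mean was 0.96, without C10-435 it was 0.99 and with normexp it was 0.94, each no longer called. On 8 of 9 arrays A_52_P36731 was the higher of the pair.

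Of the linkers between the Dlg and Shank layers, Dlgap1 was measured by 3 probes, all higher. A_51_P520650 had log2 ratios of 3.93 (C10-437), a median of 4.26 and 5.62 (C10-434), with a mean of 4.40 ± 0.141 (SE, n = 10), or 21.1-fold (limma adjusted p = 1.05e-11). The highest value stood apart from the other 9, which ended at 4.57. On that array Cy-5 was 5080 and Cy-3 103, the lowest of the 10 in either dye. A_52_P443073 was detected in Cy-3 on 5 arrays, so its size is uncertain. It had a median of 6.29 and a mean of 6.32 ± 0.258 (SE, n = 10; limma adjusted p = 1.11e-10), against 3.36 with normexp and 4.16 with the floor, still called. Its ratio was 4.11 on C10-425 and between 6.05 and 7.59 on the others. The Cy-3 signal was 171 on C10-425 against 13.7 to 60.3 elsewhere, whereas the Cy-5 signal of 2950 there lay inside the range of 1630 to 5800.

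The probe A_52_P445843 carries a different Dlgap1 accession from the other probes. It was detected in Cy-5 on all 10 arrays (275 to 638) and in Cy-3 on 0 (8.60 to 18.4), so the size of its ratio is uncertain. Set against the lowest detected Cy-3 signal on each array, after loess and quantile normalization between arrays, the ratio of this probe was 13.8-fold. On C10-416, an undetected Cy-3 spot of Homer1 A_51_P387159 (44.6) was brighter than a detected one of Dlg2 A_51_P297185 (39.0). The lowest detected signal is thus not a strict detection limit, and 13.8-fold is not a strict lower limit. The mean of the measured log2 ratios, which rest on undetected Cy-3 signals, was 5.40 (limma adjusted p = 2.28e-11). That mean was 1.20 with normexp and 1.72 with the floor, still called but below 13.8-fold.

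**Figure D3:**
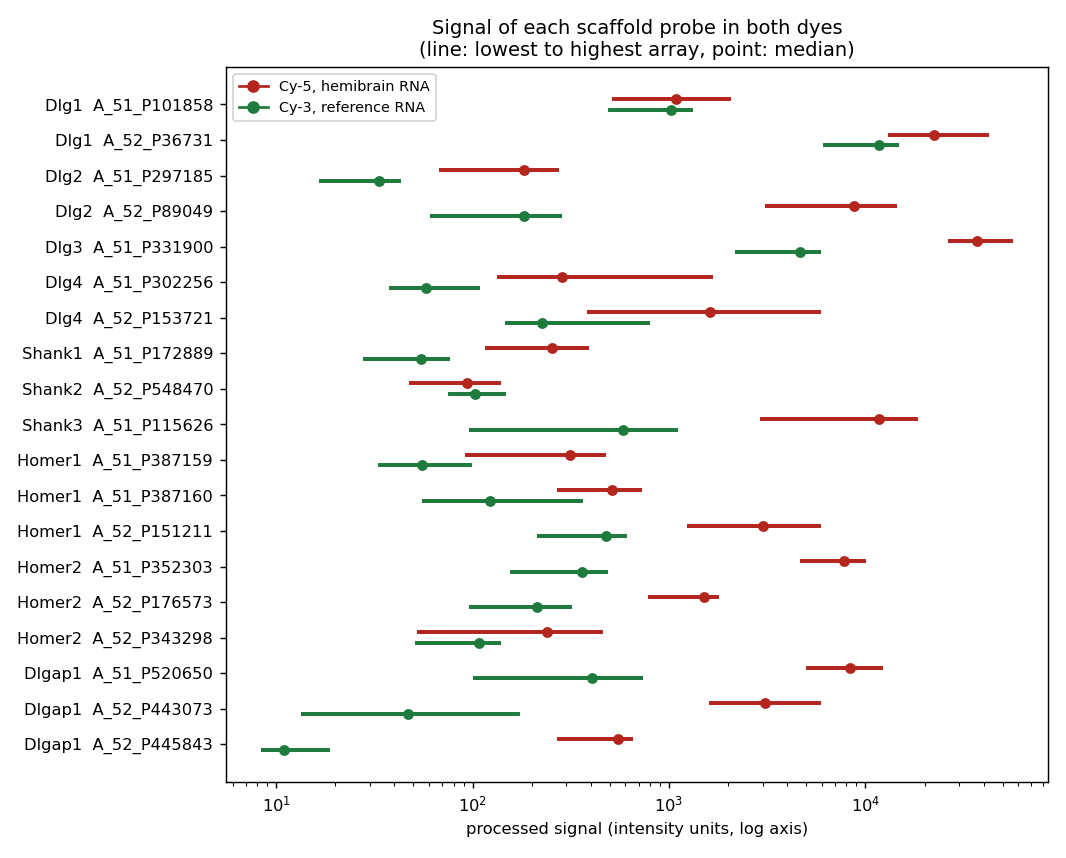
Processed signal of each scaffold probe (y axis) in Cy-5 and Cy-3 on a log axis, as the lowest, median and highest of the arrays. The lines of a pair do not touch for 12 probes; signals of different probes are not comparable as levels. The Cy-3 line of Dlgap1 A_52_P445843 (8.60 to 18.4) lies below background limits on all arrays.

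Of the Shank genes, Shank1 and Shank3 were higher and Shank2 was not called; a difference between the genes was not tested. Shank3, a scaffold of excitatory spines that is linked to a neurodevelopmental syndrome, had log2 ratios of 4.06 (C10-413), a median of 4.24 and 4.91 (C10-434), with a mean of 4.30 ± 0.09 (SE, n = 10), or 19.7-fold (limma adjusted p = 2.75e-13). Both dyes were detected on all arrays. Its Cy-5 signal ran from 2980 to 18100 and its Cy-3 signal from 98.7 to 1080 with C10-434 lowest and C10-413 highest in both, and the SD of its log2 ratio was 0.27. Shank1, a scaffold of neuronal spines, had 1.31 (C10-423), a median of 2.30 and 3.00 (C10-424), with a mean of 2.28 ± 0.164 (SE, n = 10; limma adjusted p = 3.54e-08). Its Cy-3 signal was detected on 6 arrays, and the mean was 0.57 with normexp and 0.85 with the floor, each no longer called. Shank2, which is also found in epithelia, had -0.66 (C10-434), a median of -0.08 and 0.26 (C10-413), above 0 on 3 of 10 arrays. Its mean was -0.16 ± 0.094 (SE, n = 10; limma adjusted p = 0.143), with a 95% interval from -0.36 to 0.05. The probe was dim in both RNAs, at 48.7 to 137 in Cy-5 and 77.0 to 144 in Cy-3, and the number of arrays that detected it was 6 for Cy-5 and 9 for Cy-3.

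Homer1, which encodes long forms that crosslink Shank and metabotropic receptors and a short form induced by activity, was higher by all 3 probes. A_52_P151211 had 1.65 (C10-415), a median of 2.72 and 3.28 (C10-437), with a mean of 2.73 ± 0.14 (SE, n = 10), or 6.62-fold (limma adjusted p = 1.15e-09). It was detected in both dyes on all arrays, with Cy-5 from 1260 to 5820 and Cy-3 from 218 to 600. The lowest ratio belonged to the array with the lowest Cy-5 signal, and the next ratio was 2.41. The remaining probes share another accession and gave 1.34 to 2.98 (A_51_P387159, mean 2.29 ± 0.17) and 0.95 to 3.04 (A_51_P387160, mean 1.98 ± 0.202). A_51_P387159 was detected in Cy-3 on 5 arrays and A_51_P387160 on 9. Both lost their call with normexp (0.59 and 0.99), and A_51_P387159 also with the floor (0.86). C10-415 was also the lowest array in Cy-5 for both of these probes, at 94.1 and 277. The probe with the different accession was the higher on 8 arrays against A_51_P387159 and on 9 against A_51_P387160. Which Homer1 isoforms the probes detect was not analysed here.

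Homer2, a long-form Homer with the same receptor- and Shank-binding domain, was higher by all 3 probes, with the same order of ratios on all 10 arrays. A_51_P352303 had 4.01 (C10-435), a median of 4.38 and 4.90 (C10-434), with a mean of 4.38 ± 0.089 (SE, n = 10), or 20.8-fold (limma adjusted p = 2.24e-13). A_52_P176573 had 2.29 to 3.44 and a mean of 2.79 ± 0.118, or 6.9-fold, and lay below A_51_P352303 by a median of 1.64. Both were detected in both dyes on all arrays. A_52_P343298 had -0.06 (C10-434), a median of 1.15 and 2.41 (C10-413), with a mean of 1.21 ± 0.205 (SE, n = 10; limma adjusted p = 0.000138), and was not detected in either dye on C10-434. Its mean was 0.32 with normexp and 0.54 with the floor, each no longer called. All 3 share 1 accession, so the size of the Homer2 ratio depends on the probe.

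The scaffold ratios had a wider median spread over the arrays than all probes. The median SD of the 19 probes was 0.48 on the log2 scale, against 0.36 for all probes. It was 0.26 for the 18642 probes detected in both dyes on all arrays, an unlike set, as only 9 scaffold probes were so detected. Among the scaffold probes the SD was smallest for Dlg2 A_52_P89049 (0.24), Dlg3 (0.25), Shank3 and Homer2 A_51_P352303 (both 0.27). It was largest for Dlgap1 A_52_P443073 (0.92) and Dlg4 A_51_P302256 (0.89), neither of which was detected in Cy-3 on all arrays. The dim array C10-434 was highest for 5 probes and lowest for 4. All 5 probes at which it was highest (Dlg3, Dlg4 A_52_P153721, Shank3, Homer2 A_51_P352303 and Dlgap1 A_51_P520650) were detected in both dyes there. The 4 at which it was lowest (Dlg2 A_51_P297185, Shank2, Homer2 A_52_P343298 and Dlgap1 A_52_P445843) were not. C10-435 was lowest for 5 probes and highest for 0.

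The arrays were also compared between slides. The headers put 4 arrays on slide 2, 4 on slide 3 and 1 on each of the other slides. The slides hold different animals of unsettled diet, so slide, animal and diet cannot be told apart. Between slides 2 and 3, 0 of the 19 scaffold probes differed at a limma adjusted p under 0.05, where 0.0755% of 41042 probes did. At an unadjusted p under 0.05, 1 scaffold probe differed, where 9.92% of all probes did. It was Dlgap1 A_52_P445843, with log2 ratios of 5.86 to 5.96 on slide 2 and 3.90 to 5.28 on slide 3, a difference of -1.15 ± 0.28 (SE; limma unadjusted p = 0.00249, adjusted p = 0.168, from 0.0628 after loess to 1 after normexp over the alternatives). It was the only scaffold probe whose ratios on these slides did not overlap, as 5.65% of all probes did not. Its Cy-5 signals overlapped, at 498 to 638 on slide 2 and 275 to 616 on slide 3. Its Cy-3 signals, none detected, did not, at 8.60 to 10.4 and 15.4 to 18.4. The median difference was 0.02 for the scaffold probes and 0.02 for all probes.

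**Figure D4:**
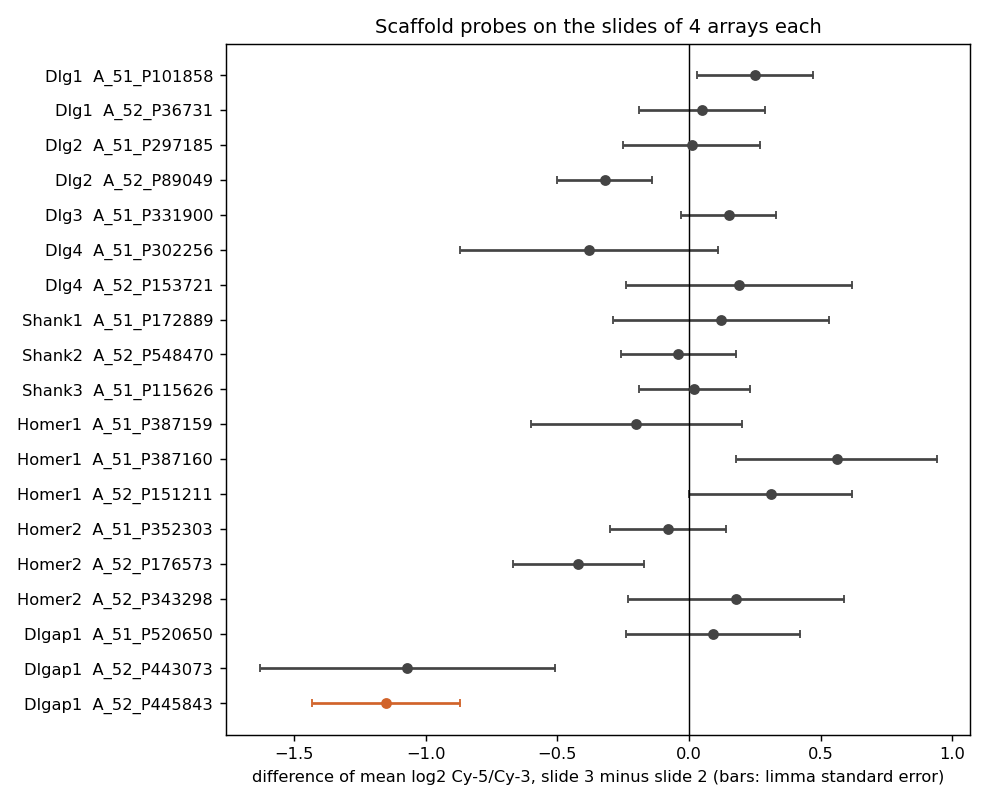
Difference of the mean log2 Cy-5/Cy-3 between the slides that held 4 arrays each (x axis, slide 3 minus slide 2; bars are limma standard errors) for each scaffold probe (y axis). The orange point, Dlgap1 A_52_P445843 at -1.15, is the only probe whose arrays do not overlap between the slides, and its Cy-3 signal was detected on no array.

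Other genes of the postsynaptic side were mostly higher as well. The lists were chosen with earlier results of these data known, so the counts below do not stand as independent evidence. Each gene was taken by its brightest probe, and 52 of 56 genes of the 5 lists given here had a probe. Of these, 41 were higher, 1 was lower and 10 were not called, with a median of 4.00. Over all 18539 genes 23.1% were higher and 22.5% lower, with a median of 0.04. Among the family paralogs, 3 of 6 were higher and 1 lower. Dlgap3, a paralog of Dlgap1 that is abundant in striatum, had a mean log2 ratio of 6.03 ± 0.156 (SE, n = 10), while Homer3, a Homer of cerebellar Purkinje cells, had -0.19 ± 0.06, which was not called. The gene called lower was Dlgap5, a family member that acts in mitosis, at -4.42 ± 0.18; it was named after its value was seen.

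Of the glutamate receptors and their auxiliary subunits, the clients of the scaffolds, 13 of 14 were higher and 0 lower. Gria2, an AMPA receptor subunit, had 6.52 ± 0.189 (SE, n = 9), and Grin2d, an NMDA receptor subunit, had -0.41 ± 0.132 and was not called. Of 17 other scaffolds and adaptors, 12 were higher and 0 lower, from Ppp1r9a, an actin-binding scaffold of spines, at 8.04 ± 0.164, to Magi3 at -0.48 ± 0.11, which was not called. Of the signaling genes, 7 of 9 were higher and 0 lower, with Agap2 at 6.50 ± 0.116 and Iqsec1 at 0.87 ± 0.087, the latter under the fold limit. All 6 adhesion genes were higher, among them the neuroligins Nlgn3 (3.77 ± 0.156) and Nlgn2 (1.82 ± 0.128), which bind neurexins across the cleft. No gene of these lists was called between the slides. Both dyes were detected on all arrays for 3 of 6 paralogs, 6 of 14 receptors and subunits and 13 of 17 scaffolds and adaptors. The same held for 8 of 9 signaling genes and 3 of 6 adhesion genes. Grin2a, Cnksr2 and Nlgn1, all called higher, were detected in Cy-3 on 0 arrays. The list calls given here are from the processed signals only, and ratios of genes dim in Cy-3 are uncertain in size.

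**Figure D5:**
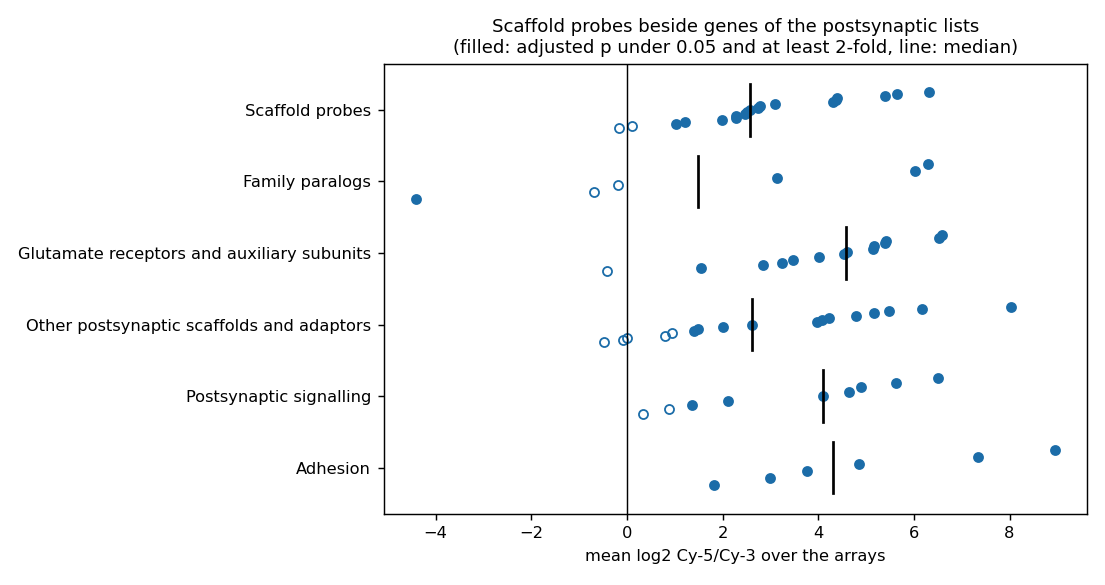
Mean log2 Cy-5/Cy-3 over the arrays (x axis) of the scaffold probes and of the genes of each postsynaptic list (y axis), with filled points for those called and a line at the median. The medians lie between 1.47 (family paralogs) and 4.57 (glutamate receptors), and the filled point left of 0 is Dlgap5 at -4.42.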

How the data were processed

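The authors hybridized hemibrain RNA (Cy-5) and a second RNA (Cy-3) to dual dye 4x44k arrays and deposited the output of Feature Extraction (version 10.10.1.1 per the file headers). The deposited processed signals are intensities on a linear scale, background-subtracted and dye-normalized by that software. The deposited log10 ratio of each spot, also from that software, served as a check. Put on the log2 scale, it lay within 0.01 of the ratio used here for 81.0% of non-control spots on C10-434. On the other arrays this held for 90.1% to 94.0%. The reason for the rest was not tested. The authors also deposited a table of log2 ratios, which equaled log2 of processed Cy-5 over Cy-3 within 0.01 for 100% of probes on every array.

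Here log2 Cy-5/Cy-3 was taken from the processed signals of 41174 probes without control spots, and spots with an outlier flag were set aside (1 of 190 scaffold values). Probes were named through RefSeq accessions (27198 probes, 66.1%, matched 1 gene). Ratios were tested against 0 with limma 3.58.1 (R 4.3.3), and slides 2 and 3 were compared in a second limma fit, both with Benjamini-Hochberg adjustment. Tables and figures used Python 3.11.15. The fits were tested on simulated data. Alternatives were loess (span 0.3), median centring, the deposited table, normexp (offset 50), subtraction with a floor of 0.5, filters on dim probes, slide as a random block, arrays left out and other limits of the ratio. Normexp and the subtraction with a floor both used median signals and were followed by loess. A probe well above background in Cy-3 on no array was also set against the lowest Cy-3 signal well above background on each array. That step used signals after loess and quantile normalization between arrays. Promoter windows came from RefSeq (GRCm38.p6), which was used for names and sequences. Precision is limited by how many arrays there are and by how far signals stand above background. All scaffold probes are named; of the lists, the highest and lowest gene among those well above background in both dyes on all arrays. The members and lists were chosen with earlier results of these data known. A further short list set out for the postsynaptic side is not reported here.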

Additional observations from a re-analysis of the deposited data

Results flagged for a closer look

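Arrays were looked at for a gap to the other arrays (Dixon's test for 10 arrays at the 95% level) in 31 measures, of which 4 were set apart; chance sets apart about 1 in 20, or 1.55. For Homer1 A_52_P151211, C10-415 gave a log2 ratio of 1.65, with the next at 2.41. For Dlgap1 A_51_P520650, C10-434 gave 5.62, with the next at 4.57. For Dlgap1 A_52_P443073, C10-425 gave 4.11, with the next at 6.05. The median of the proliferation list was -5.23 on the dim array C10-434, with the next at -6.12.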

How the results depend on the processing

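Of the 19 scaffold probes, 17 were called higher. The count was 10 with normexp correction and 8 when only the 9 probes detected in both dyes on all arrays were kept, and it ran from 16 to 17 when 1 array was left out. It was 13 with the floor, where the calls lost were those of Dlg2 A_51_P297185 (0.76), Shank1 (0.85), Homer1 A_51_P387159 (0.86) and Homer2 A_52_P343298 (0.54). With normexp, the calls lost were those of Dlg1 A_52_P36731 (0.94), Dlg2 A_51_P297185 (0.51), Dlg4 A_51_P302256 (0.81), Shank1 (0.57), Homer1 A_51_P387159 (0.59) and A_51_P387160 (0.99) and Homer2 A_52_P343298 (0.32), each still above 0. Of these, all but Dlg1 A_52_P36731 were below the background limit in Cy-3 on at least 1 array. Of the probes still called, normexp gave means of 2.94 for Dlg3, 3.43 for Shank3 and Dlgap1 A_51_P520650, 3.28 and 1.47 for Homer2 A_51_P352303 and A_52_P176573, and 2.01 for Homer1 A_52_P151211. No scaffold probe was called lower, or called between the slides, under any alternative run. No direction of a called probe turned. The ratio of a probe dim in Cy-3 depends on the background set for it.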
